A study of Homo sapiens with 36 samples.

Results

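The report concerns the 8 genes that encode the components of the epithelial NADPH oxidase NOX1 and of the DUOX oxidases: NOX1, NOXA1, NOXO1, CYBA, DUOX1, DUOX2, DUOXA1 and DUOXA2. They were taken by symbol from the 60591 genes of the deposited table of mRNA counts, and all 8 were listed there. The table held 18 libraries of Caco-2 and HT-29 cells, both human colorectal adenocarcinoma lines, in 6 groups of 3 libraries described as biological replicates. Each line was kept as a control, with CoCl2 at 300 µM or with Oxy, an oxyquinoline derivative, at 5 µM for 24 h. By the labels, control and Oxy medium held 0.5 µl of DMSO per ml, while the study's methods give 0.5% DMSO for control and CoCl2 medium. The sources thus differed on the amount of DMSO and on whether CoCl2 medium held it too. Both agents are used to imitate hypoxia, because they block the HIF prolyl hydroxylases that mark the alpha subunits of hypoxia-inducible factor (HIF) for destruction. Differentiation of Caco-2 had lasted 21 days, and a difference between the lines cannot be told apart from one of culture state.

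NADPH oxidases pass electrons across a membrane to oxygen and so make superoxide or hydrogen peroxide on purpose. NOX1, the form of colonic epithelium, is a membrane protein that is stabilised by CYBA and switched on by the organiser NOXO1, the activator NOXA1 and a Rac GTPase. DUOX1 and DUOX2 are calcium-regulated oxidases that release hydrogen peroxide at the cell surface. To leave the endoplasmic reticulum they need a maturation factor, chiefly DUOXA1 for DUOX1 and DUOXA2 for DUOX2. In the gut DUOX2 and DUOXA2 serve mucosal defence, and in the thyroid they supply the peroxide for hormone synthesis.

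In GENCODE release 44 on GRCh38 all members were protein-coding genes. NOX1 lies at chrX:100843324-100874359 on the minus strand, NOXA1 at chr9:137423350-137434406 on the plus strand, NOXO1 at chr16:1978917-1984192 on the minus strand and CYBA at chr16:88643275-88651083 on the minus strand. The other 4 share a locus on chromosome 15. DUOX2 (chr15:45092650-45114172, minus strand) and DUOXA2 (chr15:45114326-45118421, plus strand) start 153 bases apart and run away from each other. DUOXA1 (chr15:45117366-45129938, minus strand) and DUOX1 (chr15:45129933-45165576, plus strand) overlap by 6 bases at their starts. DUOXA2 and DUOXA1 run towards each other and overlap by 1056 bases at their ends, which covers 27.7% of the exon bases of DUOXA2 and 19.0% of those of DUOXA1. The use of strand in the authors' counting was not stated, so the low counts of DUOXA1 and DUOXA2 are uncertain where they overlap.

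The upstream sequences of 3 regions are shown, NOX1 and NOXA1, the oxidase and its activator, which fell with CoCl2 in both lines, and the DUOX2-DUOXA2 interval because both genes start from it. DUOX1 also fell with CoCl2 in both lines, and its window is not printed because it lies within the DUOXA1 gene. They were taken from RefSeq (GRCh38.p14), where all 8 members matched, and end before the first base of the GENCODE gene. The NOX1 window is the 250 bases at chrX:100874360-100874609 on the minus strand, the NOXA1 window is the 138 bases at chr9:137423212-137423349 on the plus strand between the starts of EXD3 and NOXA1, and the DUOX2-DUOXA2 window is the whole 153-base interval at chr15:45114173-45114325 on the plus strand, with DUOX2 leaving to the left and DUOXA2 to the right. Capitals mark matches to the motifs searched on both strands.
NOX1: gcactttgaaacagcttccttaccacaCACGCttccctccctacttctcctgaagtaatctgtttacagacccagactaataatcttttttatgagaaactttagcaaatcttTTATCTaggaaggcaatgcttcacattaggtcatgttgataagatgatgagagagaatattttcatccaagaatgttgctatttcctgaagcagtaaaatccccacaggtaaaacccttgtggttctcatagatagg
NOXA1: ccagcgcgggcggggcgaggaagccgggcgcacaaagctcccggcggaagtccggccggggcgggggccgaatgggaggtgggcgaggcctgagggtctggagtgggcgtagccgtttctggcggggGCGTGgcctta
DUOX2-DUOXA2: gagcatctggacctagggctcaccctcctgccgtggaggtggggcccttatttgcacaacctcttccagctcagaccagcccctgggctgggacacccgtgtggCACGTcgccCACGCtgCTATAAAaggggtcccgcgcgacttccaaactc
The hypoxia response element core was searched as ACGTG and as GCGTG, together with a GATA motif (AGATAA), a CDX motif (TTTATNG) and the antioxidant response element core (TGACNNNGC). The NOX1 window held 1 GCGTG and 1 AGATAA, which were present in 32.2% and 9.17% of 35116 promoter windows of the same length. In the NOXA1 window 1 GCGTG was found, against 22.1% of windows of 138 bases. The DUOX2-DUOXA2 interval held 1 ACGTG, 1 GCGTG and 1 TTTATNG, which were present in 12.8%, 23.9% and 5.41% of windows of 153 bases. That last match, CTATAAA on the plus strand, also holds the letters of a TATA box. The 250-base windows of DUOX1, DUOXA1 and NOXO1 held 0 matches to these motifs, and that of CYBA held 1 GCGTG. The matches describe letters only, and no binding was measured in these data.

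Library totals ran from 12925719 to 22332639 counts. Levels are given as CPM, counts divided by the library size after TMM scaling over all 18 libraries, and 3 counts corresponded to 0.119 to 0.246 CPM in single libraries. A gene was called changed where edgeR's quasi-likelihood test gave a Benjamini-Hochberg FDR under 0.05 over all genes tested and the absolute log2 fold change was over 1. All 7 markers of gut epithelium were above 3 counts in every group, and the 8 enterocyte markers were all above that level in Caco-2 controls against 4 of 8 in HT-29 controls. The 8 leukocyte markers, searched because phagocytes carry NOX2, summed to 24.8 to 40.3 CPM in Caco-2 and 1078 to 1277 CPM in HT-29, where lysozyme (LYZ) alone read 1145 CPM ± 25.3 (SD, n = 3) in controls, while the pan-leukocyte gene PTPRC had at most 2 counts in a library. Fibroblast markers summed to at most 34.7 CPM. Thyroid markers summed to 8.99 to 25.1 CPM. Scaling by library size alone shifted the median log2 change of all genes by -0.32 (CoCl2) and -0.15 (Oxy) in Caco-2 and by -0.63 (CoCl2) and -0.14 (Oxy) in HT-29, and turned the calls towards lower. With TMM, 1464 genes were higher and 2283 lower with CoCl2 in Caco-2, against 870 and 3546 with library size alone, and for Oxy 711 and 1165 against 500 and 1644. In HT-29, 2749 genes were higher and 3775 lower with CoCl2, against 1295 and 6250, and for Oxy 1502 and 1197 against 1225 and 1596. In such bulk libraries, fewer cells that make a transcript and less of it per cell cannot be told apart.

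NOX1, the catalytic subunit, fell with both agents in both lines. In HT-29 controls it read 88.6, 89.2 and 95.1 CPM, from 1324 to 2399 counts per library. In Caco-2 controls it read 8.46, 9.67 and 10.1 CPM. The HT-29 controls were thus 9.70-fold above the Caco-2 controls (log2 3.28, SE 0.10, FDR 1.33e-25), with no overlap. After CoCl2, NOX1 read 2.30, 2.85 and 1.91 CPM in Caco-2 and 2.54, 2.08 and 1.68 CPM in HT-29. After Oxy it read 3.64, 3.49 and 3.33 CPM in Caco-2 and 3.22, 3.91 and 3.3 CPM in HT-29. The treated libraries of both lines therefore fell within 1.68 to 3.91 CPM, although the controls stood far apart, and the ranges of the lines overlapped for each agent. The levels followed the order HT-29 control, Caco-2 control, Oxy in both lines and CoCl2 in both lines, and the only neighbours in this order whose ranges overlapped were the lines under the same agent. In HT-29 the log2 change was -5.32 (SE 0.10, FDR 1.17e-25) with CoCl2 and -4.70 (SE 0.08, FDR 6.96e-25) with Oxy. The treated libraries held 35, 31 and 21 counts with CoCl2 and 60, 65 and 60 with Oxy. These SEs were derived from the test statistic and may be too small. The Caco-2 changes were -2.01 (SE 0.19, FDR 1.50e-09) with CoCl2 and -1.43 (SE 0.18, FDR 3.13e-07) with Oxy. The difference between the lines was itself called, at log2 -3.41 (SE 0.23, FDR 3.31e-14) for CoCl2 and -3.29 (SE 0.19, FDR 1.68e-15) for Oxy. These differences are close in size to the difference between the untreated lines, which shares its control libraries with them. NOX1 was also lower with CoCl2 than with Oxy, by log2 -0.58 (SE 0.21, FDR 0.0247) in Caco-2 and -0.62 (SE 0.17, FDR 0.00202) in HT-29, both under the limit on fold change, and the second became a call (-1.12) when only library size was used for scaling.

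**Figure D1:**
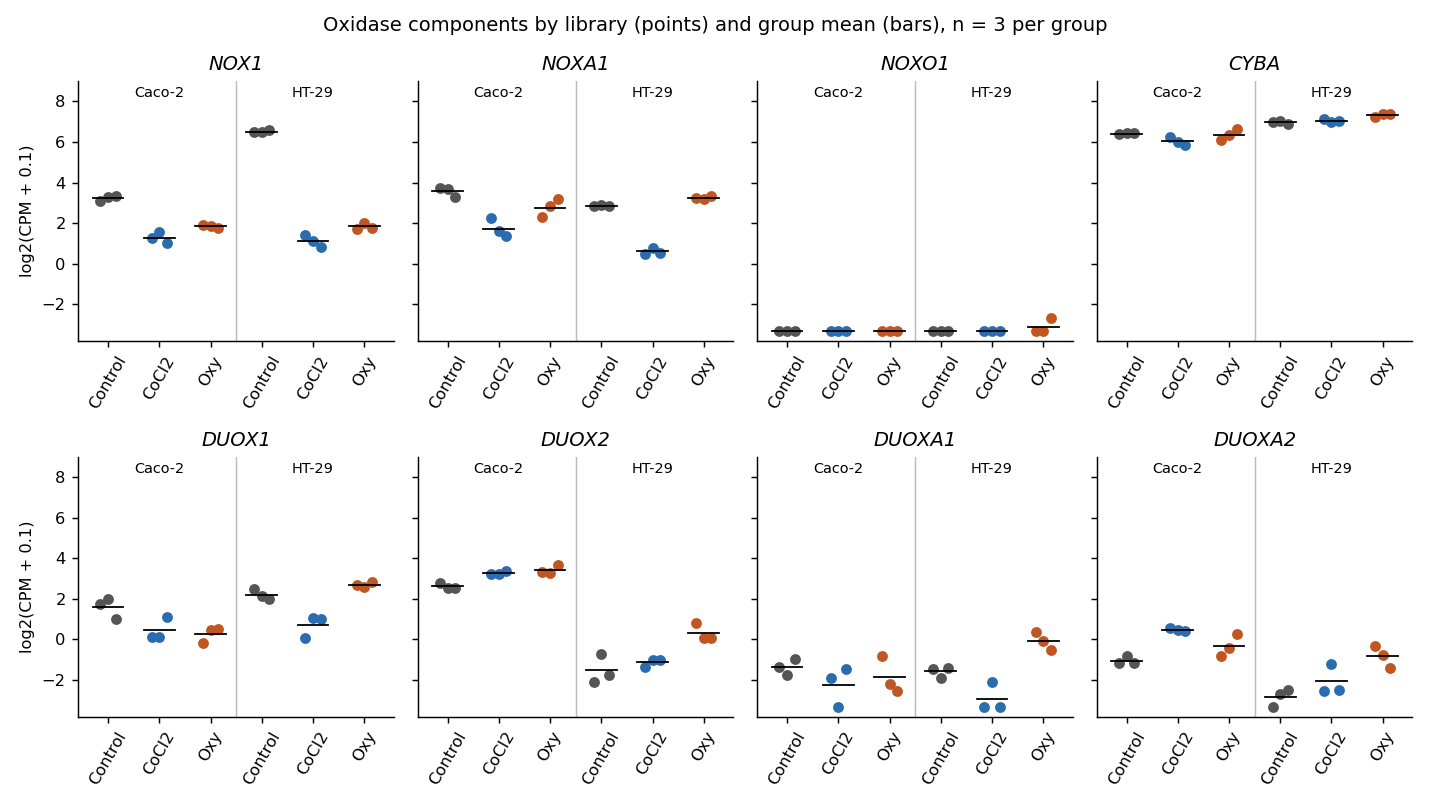
Level of each member as log2(CPM + 0.1) in every library (points) with the mean of the 3 log2 values per group (bars), for Caco-2 on the left and HT-29 on the right of each panel. The NOX1 controls are 9.70-fold apart while the treated libraries of both lines fall within 1.68 to 3.91 CPM, and NOXO1 is at the floor everywhere.

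NOXA1, which activates NOX1, fell with CoCl2 in both lines but not with Oxy in HT-29. Caco-2 controls read 13.3, 12.8 and 9.81 CPM, CoCl2 4.59, 2.92 and 2.49 CPM, and Oxy 4.83, 6.98 and 8.89 CPM. In HT-29 the controls read 7.02, 7.37 and 6.98 CPM, CoCl2 1.30, 1.61 and 1.36 CPM, and Oxy 9.46, 9.02 and 9.85 CPM. The ranges of treated and control libraries did not overlap in any of these pairs, and only with Oxy in HT-29 did the treated libraries lie above. With CoCl2 the log2 change was -1.88 (SE 0.22, FDR 5.16e-08) in Caco-2 and -2.20 (SE 0.17, FDR 2.04e-12) in HT-29, and the lines differed by -0.42 (95% interval -1.04 to 0.21, FDR 0.295). With Oxy it was -0.80 (SE 0.19, FDR 0.00134) in Caco-2 and 0.42 (SE 0.11, FDR 9.77e-04) in HT-29, both under the fold limit, while the line difference of 1.21 (SE 0.23, FDR 4.63e-05) was called. Without Oxy replicate 3, the Caco-2 change with Oxy was -1.01 and passed both limits. The agents differed in HT-29, where NOXA1 was 6.16-fold lower with CoCl2 than with Oxy (log2 -2.62, SE 0.16, FDR 3.05e-14). They also differed in Caco-2 by log2 -1.08 (SE 0.23, FDR 3.76e-04), but that call was lost without CoCl2 replicate 3 (-0.89) or without Oxy replicate 3 (-0.87).

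CYBA, the membrane partner that stabilises NOX1 and other NOX proteins, was the most even member. It read 82.5, 85.9 and 85.5 CPM in Caco-2 controls, 74.4, 63.8 and 58.3 CPM after CoCl2, and 68.5, 79.7 and 97.9 CPM after Oxy. HT-29 controls read 128, 129 and 118 CPM, CoCl2 libraries 138, 126 and 131 CPM, and Oxy libraries 152, 166 and 168 CPM. CYBA was not called in any of the 9 comparisons, as each change lay under the fold limit. The changes were -0.37 with CoCl2 (SE 0.10, FDR 0.00296) and -0.05 with Oxy (95% interval -0.25 to 0.15, FDR 0.719) in Caco-2, and 0.39 with Oxy in HT-29 (SE 0.05, FDR 5.39e-07). With CoCl2 in HT-29 the change was 0.18 (SE 0.06, FDR 0.00353), a direction that turned to -0.45 when only library size was used for scaling. Untreated HT-29 cells held 1.48-fold more CYBA than untreated Caco-2 cells (log2 0.56, SE 0.09, FDR 5.11e-07). Per kilobase of exon, NOX1 and CYBA stood at 35.8 ± 1.41 and 30.1 ± 1.5 CPM (SD, n = 3) in HT-29 controls. In Caco-2 controls, on the same scale, they stood at 3.70 ± 0.33 and 20.3 ± 0.45 CPM. After CoCl2 in HT-29 the per-kilobase levels were 0.825 for NOX1 and 31.7 for CYBA. Exon lengths are from GENCODE release 44. For CYBA the deposited log2 table implied a median length of 3262 bases in Caco-2 and 3210 bases in HT-29. Both are shorter than the 4161 bases used here, so that the per-kilobase level of CYBA may be understated. The order of NOX1 and CYBA in HT-29 controls depends on the length used.

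NOXO1, the organiser, had 0 counts in 17 libraries and 1 count in the third Oxy library of HT-29, where a count of 0 allows up to 3 counts, or 0.119 to 0.246 CPM. It was not tested in any comparison. The exons of TBL3 on the opposite strand covered 98.8% of the exon bases of NOXO1. Among protein-coding genes with over 80% of their exon bases covered by opposite protein-coding exons, 21 of 26 (80.8%) had at most 18 counts over all libraries, against 3943 of 15632 (25.2%) among those with no such cover. The 0 counts of NOXO1 were therefore not read as absence, and the part of the overlap in them was not tested.

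DUOX1, the oxidase at the right end of the chromosome 15 locus, fell with both agents in Caco-2 but only with CoCl2 in HT-29. Caco-2 controls read 3.26, 3.82 and 1.91 CPM, CoCl2 libraries 0.984, 0.999 and 2.02 CPM and Oxy libraries 0.794, 1.30 and 1.32 CPM. HT-29 controls read 5.42, 4.28 and 3.84 CPM, CoCl2 libraries 0.942, 1.94 and 1.92 CPM and Oxy libraries 6.34, 5.83 and 6.93 CPM. Control and CoCl2 ranges overlapped in Caco-2 and not in HT-29, and the Oxy libraries lay below the controls in Caco-2 and above them in HT-29. The log2 change was -1.11 (SE 0.32, FDR 0.00435) with CoCl2 and -1.39 (SE 0.33, FDR 0.00119) with Oxy in Caco-2. The first call was lost without CoCl2 replicate 1 (-0.94), without CoCl2 replicate 2 (-0.93) or without control replicate 2 (-0.91). In HT-29 the change was -1.35 (SE 0.22, FDR 2.97e-06) with CoCl2 and 0.54 (SE 0.15, FDR 0.00310) with Oxy, the latter under the fold limit. The lines differed in the Oxy response by 1.91 (SE 0.36, FDR 4.41e-05), and not detectably in the CoCl2 response, where the difference was -0.37 (95% interval -1.17 to 0.42, FDR 0.478). Within HT-29, DUOX1 was 3.72-fold lower with CoCl2 than with Oxy (log2 -1.90, SE 0.21, FDR 4.47e-09).

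DUOX2, the oxidase at the left end of the locus, was higher in untreated Caco-2 than in untreated HT-29 cells. Its controls read 6.75, 5.66 and 5.66 CPM in Caco-2 and 0.134, 0.514 and 0.198 CPM in HT-29, where they rested on 2, 9 and 5 counts. The HT-29 controls were lower by log2 -4.41 with no overlap (FDR 9.43e-16). In Caco-2, DUOX2 read 9.18, 9.20 and 10.3 CPM with CoCl2 and 9.73, 9.40 and 12.5 CPM with Oxy. All treated Caco-2 libraries lay above all controls, and the changes of 0.67 (SE 0.15, FDR 5.53e-04) and 0.80 (SE 0.15, FDR 1.28e-04) passed the FDR but not the fold limit. In HT-29 it read 0.290, 0.402 and 0.400 CPM with CoCl2 and 1.67, 0.962 and 0.936 CPM with Oxy. The Oxy libraries, with 31, 16 and 17 counts, stood above every control, and the change of 2.09 (SE 0.40, FDR 4.66e-05) was called. The CoCl2 libraries overlapped the controls, at 0.49 (95% interval -0.60 to 1.58, FDR 0.416), a value that turned to -0.13 with library size alone. DUOX2 was 3.04-fold lower with CoCl2 than with Oxy in HT-29 (log2 -1.60, SE 0.41, FDR 0.00109), while in Caco-2 the agents differed by -0.13 (95% interval -0.41 to 0.16, FDR 0.494). The lines differed in the Oxy response by 1.28 (SE 0.43, FDR 0.0160). That call was lost without HT-29 control replicate 1 (1.03), without HT-29 control replicate 3 (1.00) or without HT-29 Oxy replicate 1 (0.94). Of the 75-base words in the exons of DUOX1 and DUOX2, 331 were shared, which is 3.57% of the words of DUOX1 and 3.24% of those of DUOX2.

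DUOXA2, the maturation factor of DUOX2 that starts across the 153-base interval from it, rose with CoCl2 in Caco-2. Caco-2 controls held 6, 7 and 5 counts of DUOXA2 (0.343, 0.461 and 0.341 CPM), CoCl2 libraries 17, 18 and 23 counts (1.39, 1.28 and 1.22 CPM) and Oxy libraries 7, 11 and 16 counts (0.463, 0.651 and 1.11 CPM). HT-29 controls held 0, 1 and 2 counts, CoCl2 libraries 1, 5 and 1 counts and Oxy libraries 13, 8 and 5 counts. The treated Caco-2 libraries lay above the controls with each agent, and in HT-29 the Oxy libraries did while the CoCl2 libraries overlapped them. The change with CoCl2 in Caco-2 was called at log2 1.74 (SE 0.43, FDR 0.00117). With Oxy in Caco-2 it was 0.93 (SE 0.47, FDR 0.102), which did not pass. In HT-29, DUOXA2 was too low for the test within the line, and summed counts gave an Oxy to control ratio of 9.36 with an exact 95% counting interval of 2.87 to 48.3. The line difference in the Oxy response was 2.12 (SE 0.90, FDR 0.0562) and did not pass, though it did without Caco-2 Oxy replicate 3 (2.5) or without HT-29 Oxy replicate 3 (2.40). Untreated HT-29 cells had 0.137 times the DUOXA2 of untreated Caco-2 cells by summed counts (interval 0.0258 to 0.469), a difference that edgeR called at log2 -2.71 (FDR 0.00178).

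DUOXA1, the maturation factor of DUOX1, was near the detection floor in most groups. Caco-2 libraries held 0 to 7 counts in every group, and the gene was too low for the test there. HT-29 controls held 4, 3 and 7 counts, CoCl2 libraries 0, 2 and 0 counts and Oxy libraries 22, 14 and 11 counts. The Oxy libraries stood clear of the controls, and the change of 1.84 (SE 0.43, FDR 4.76e-04) was called, with a ratio of summed counts of 3.63 (interval 1.96 to 7.13). The CoCl2 libraries lay below the controls, with a ratio of 0.200 (interval 0.0221 to 0.870) that rested on 2 counts against 14. That change was called at an FDR of 0.0365 by edgeR, but not by DESeq2 (FDR 0.0781), nor without CoCl2 replicate 1 (FDR 0.141), CoCl2 replicate 3 (FDR 0.127), control replicate 1 (FDR 0.0608) or control replicate 3 (FDR 0.0954). Against the Oxy libraries, the CoCl2 libraries had a ratio of summed counts of 0.0551 (interval 0.00649 to 0.211) and an FDR of 1.04e-05. These intervals cover counting error only.

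**Figure D2:**
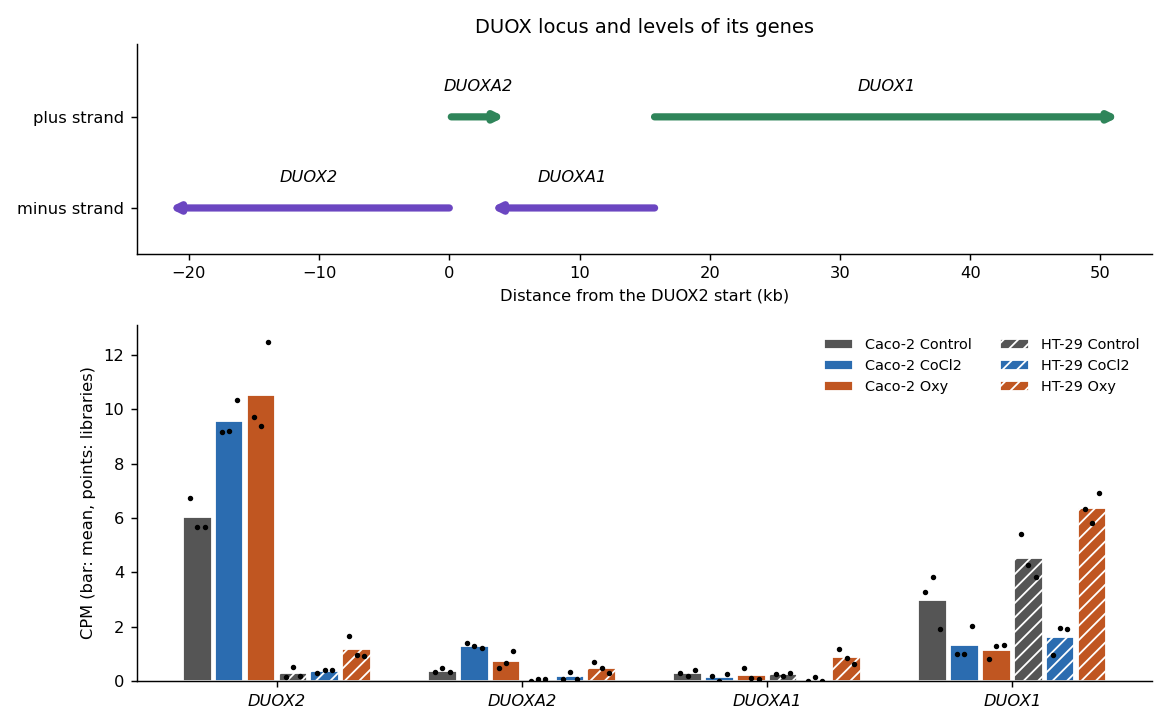
Top, the 4 genes of the DUOX locus with arrows in the direction of transcription, by distance from the DUOX2 start in kb. Bottom, their levels in CPM, with bars for group means and points for the 3 libraries of a group; DUOX2 is highest in Caco-2 and DUOX1 in HT-29 with Oxy, while both maturation factors stay at or below 1.39 CPM.

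Counted over the members, 6 of 8 were tested in each comparison, since NOXO1 and 1 DUOX maturation factor were too low within each line, and NOXO1 and DUOXA1 were too low over both lines. With CoCl2 in Caco-2, 1 of 6 was called higher (DUOXA2) and 3 lower (NOX1, NOXA1 and DUOX1), where 23.4% of all 16034 genes tested were called, 9.13% higher and 14.2% lower. With Oxy in Caco-2, 2 of 6 were called, both lower (NOX1 and DUOX1), against 11.7% of all genes, 4.43% higher and 7.27% lower. CoCl2 in HT-29 called 4 of 6, all lower (NOX1, NOXA1, DUOX1 and DUOXA1), against 41.3% of 15812 genes, 17.4% higher and 23.9% lower. Oxy in HT-29 called 2 of 6 higher (DUOX2 and DUOXA1) and 1 lower (NOX1), against 17.1% of genes, 9.5% higher and 7.57% lower. For CoCl2 the median log2 change of the tested members was -0.74 in Caco-2 and -1.71 in HT-29, beside -0.03 in both lines over all genes tested. For Oxy the medians were -0.43 in Caco-2 and 0.48 in HT-29, beside -0.02 and 0.01. Among the comparisons with controls, the background was largest for CoCl2 in HT-29.

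**Figure D3:**
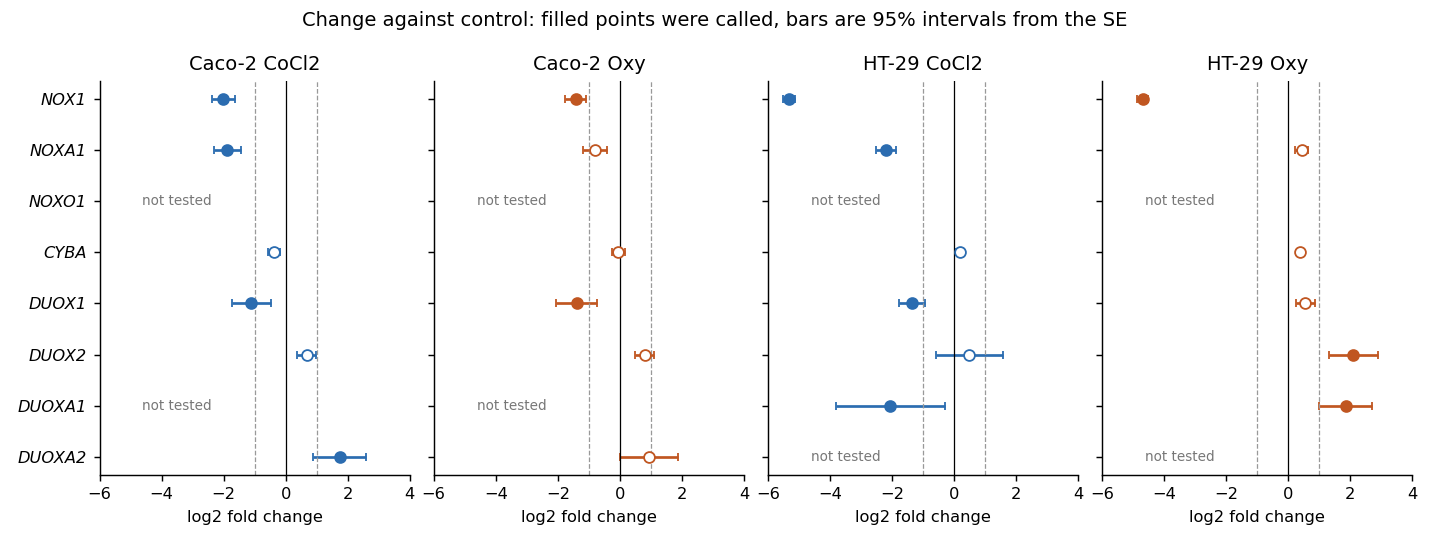
Log2 fold change against the control of the same line for each member (points) with 95% intervals from the standard error (bars). Filled points passed the FDR of 0.05 and the absolute log2 limit of 1 (dashed lines), and only NOX1 is filled on the same side in all 4 panels.

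Between the agents, 1 of 6 members was called in Caco-2 (NOXA1) against 11.7% of all genes, and 4 of 6 in HT-29 (NOXA1, DUOX1, DUOX2 and DUOXA1, all lower with CoCl2) against 29.9%. Each agent was used at 1 dose, and the doses differed. The line difference in the CoCl2 response was called for 1 of 6 (NOX1) against 21.6% of 17921 genes, and that in the Oxy response for 4 of 6 (NOX1 lower in HT-29, and NOXA1, DUOX1 and DUOX2 higher in HT-29) against 15.2%. In untreated cells 3 of 6 differed between the lines (NOX1 higher in HT-29, DUOX2 and DUOXA2 higher in Caco-2), against 45.8%. NOXA1 was 1.69-fold lower (log2 -0.75, FDR 6.20e-05) and DUOX1 1.47-fold higher (log2 0.56, FDR 0.0252) in untreated HT-29 cells, both under the fold limit.

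**Figure D4:**
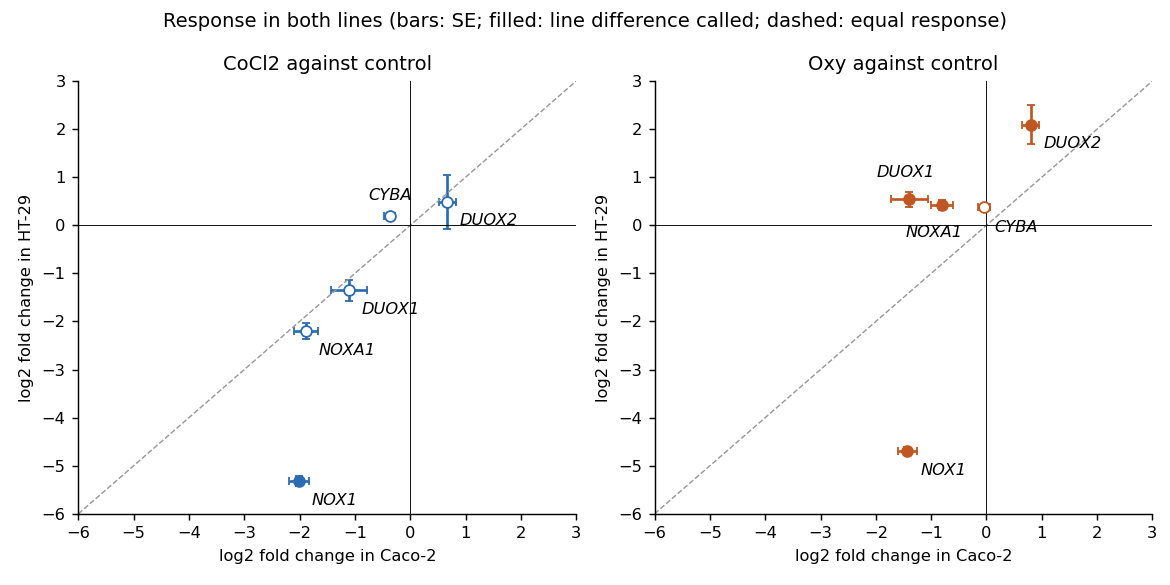
Log2 fold change in HT-29 against that in Caco-2 for CoCl2 (left) and Oxy (right), with standard errors as bars, for the 5 members tested in both lines. The dashed line marks an equal response and filled points are called line differences: NOX1 lies far below the line with both agents, and DUOX1, NOXA1 and DUOX2 lie above it with Oxy.

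Across the 18 libraries, with each line centred on its own mean log2 level, DUOX2 and DUOXA2 correlated at Pearson's r = 0.81 and NOXA1 and DUOX1 at r = 0.83, while NOX1 and DUOX2 stood at r = -0.56. These values are descriptions over libraries that share their groups. Of 17920 genes, those most like NOX1 included PAPSS2 (r = 0.98), which makes the sulphate donor PAPS, and ADNP (r = 0.98). Those most like NOXA1 were ALDH3B1 (r = 0.98), an aldehyde dehydrogenase, GALK1 (r = 0.98), the galactokinase, and POMGNT1 (r = 0.98), a glycosyltransferase of O-mannosyl glycans. CYBA was closest to PBXIP1 (r = 0.92), DUOX1 to AC006449.5 (r = 0.93), DUOX2 to the syndecan SDC4 (r = 0.90) and DUOXA2 to the kinase DAPK2 (r = 0.92) and to BIRC3 (r = 0.91), an inhibitor of apoptosis.

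Of 12 other oxidase subunits, the Caco-2 fit tested 4 and the HT-29 fit 7. In Caco-2, 0 of 4 were called with either agent, beside 23.4% of all genes with CoCl2 and 11.7% with Oxy. By FDR alone, 1 was higher and 2 lower with CoCl2, and 1 higher and 1 lower with Oxy. The share of all genes that passed the FDR alone was not counted. RAC1, the widespread Rac GTPase, was the higher one at log2 0.85 (SE 0.08) with CoCl2 and 0.46 (SE 0.08) with Oxy, and POLDIP2, a NOX4 partner, was lower at -0.77 (SE 0.07) and -0.51 (SE 0.07). In HT-29, CYBB, the catalytic subunit of NOX2, fell from 1.73 CPM ± 0.301 (SD, n = 3) to 0.583 ± 0.068 with CoCl2 (log2 -1.48, SE 0.31, FDR 8.06e-05) and 0.465 ± 0.162 with Oxy (log2 -1.89, SE 0.30, FDR 3.28e-06). The haematopoietic GTPase RAC2 rose with Oxy in HT-29 (log2 1.04, SE 0.09, FDR 2.22e-10), and in Caco-2 controls it had 0 counts. The exons of NOX1 and CYBB shared no word of 75 bases.

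Of 10 transcription factors known to act on NOX1 or DUOX2, the Caco-2 fit tested 9 and the HT-29 fit 8. With CoCl2, 1 was higher and 1 lower in each line, beside 23.4% of all genes called in Caco-2 and 41.3% in HT-29. CDX2, the intestinal homeobox factor, fell in HT-29 with CoCl2 (log2 -1.46, SE 0.14, FDR 5.15e-10) and stood at 0.93 (SE 0.08, FDR 7.92e-10) in Caco-2, under the fold limit, with a called line difference of -2.5 (SE 0.17, FDR 2.06e-14). GATA4, which with its relatives binds GATA motifs, was lower with CoCl2 in Caco-2 (log2 -1.38, SE 0.33, FDR 7.18e-04). It held 12 to 14 counts per CoCl2 library there against 30 to 43 in controls, and 0 counts in all HT-29 libraries. Its relative GATA6, named after its values were seen, read 61.3 CPM in Caco-2 controls. With CoCl2 GATA6 stood at 0.23 (SE 0.08, FDR 0.0184) in Caco-2 and -0.33 (SE 0.08, FDR 8.19e-04) in HT-29, both under the fold limit. The interferon-responsive factor IRF1 rose with Oxy in HT-29 (log2 1.20, SE 0.08, FDR 2.66e-13), and its line difference with Oxy was 0.31 (SE 0.20, FDR 0.205). RELA, an NF-kappaB subunit named after its values were seen, was the factor higher with CoCl2, at log2 1.22 (SE 0.08) in Caco-2 and 1.23 (SE 0.06) in HT-29.

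Of 10 epithelial sensors and cytokine receptors, the Caco-2 fit tested 8 and the HT-29 fit 7. With CoCl2 in Caco-2, 2 were higher and 2 lower, with Oxy in Caco-2 1 was lower, and with CoCl2 in HT-29 1 was lower. Over all genes tested 23.4%, 11.7% and 41.3% were called in these comparisons, so the HT-29 count of 1 of 7 lay below its background. TLR5, the flagellin receptor, fell in Caco-2 with CoCl2 (log2 -1.70, SE 0.31, FDR 3.43e-05) and with Oxy (log2 -1.48, SE 0.30, FDR 2.07e-04). IL1R1, the interleukin 1 receptor, fell with CoCl2 in Caco-2 (log2 -1.45, SE 0.11, FDR 1.86e-11) and in HT-29 (log2 -1.45, SE 0.29, FDR 5.66e-05). The interleukin 10 family receptor chain IL10RB rose with CoCl2 in Caco-2 (log2 1.71, SE 0.37, FDR 3.18e-04), as did IFNGR1 (log2 1.10, SE 0.08), an interferon gamma receptor chain named after its values were seen. TLR4, the lipopolysaccharide receptor, stood at 5.08 CPM ± 0.742 (SD, n = 3) in HT-29 controls and at 0 counts in Caco-2 controls. IL22RA1, a chain of the interleukin 22 receptor, stood at -0.87 (SE 0.06, FDR 1.74e-12) with CoCl2 in HT-29, under the fold limit.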

How the data were processed

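The authors removed adapters with cutadapt 2.10 and aligned single-end 75-base reads to GRCh38 (patch 13) with STAR 2.7.5b, per the study's methods and the submitters' processing notes, which also name edgeR 3.30.3, and genes followed GENCODE release 34. The counting tool and its use of strand are not given in the sources used here. The authors deposited raw counts per gene, used here as deposited, and a table of log2 values. The deposited log2 values matched log2(RPKM + 1) scaled within each line, and listed DUOX2 at 0 in all HT-29 libraries, so they served only to check lengths. Groups came from the labels, and 0 per-sample columns were left without a sample. Tables of miRNA were not used.

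Counts were tested with edgeR 4.0.16 in R 4.3.3 (filterByExpr, TMM, quasi-likelihood F-test, two-sided, Benjamini-Hochberg over all genes tested). Each line was fitted on its 9 libraries, and line differences were interaction terms fitted on all 18. Each edgeR SE is the absolute log2 fold change divided by the square root of the F statistic, not a separate estimate. It may be too small where a large change rests on few counts. The 95% intervals are normal intervals from the SE and share this limit. DESeq2 1.42.0, RLE scaling, library size only, no filter, a replicate block, only the libraries compared, no fold limit and leaving out each library were the alternatives. Scripts were tested on simulated data. The members and gene lists were chosen with earlier results of these data known. All 8 members are described, and list genes are named where called in 1 or more comparisons, at most 5 per list by largest change. Some genes and motifs that these rules cover are not reported here. Motif shares were counted over the RefSeq promoter windows. Replicate numbers did not pair libraries: deviations of same-numbered libraries from their group means correlated between -0.06 and 0.07 in Caco-2 and between -0.04 and 0.02 in HT-29. No pair of replicates was a duplicate, since chi-square per degree of freedom was 1.86 or more. In Caco-2, replicate 1 gave 7.91 and 9.61 against replicates 2 and 3 with CoCl2, and 8.63 and 11.4 with Oxy. Replicates 2 and 3 gave 3.25 and 3.20 against each other with CoCl2 and Oxy. HT-29 control replicate 3 gave 5.46 and 4.52 against replicates 1 and 2, which gave 1.88. P-values cover the spread between these libraries, and whether replicates came from separate cultures was not further described.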

Additional observations from a re-analysis of the deposited data

Results flagged for a closer look

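A total of 5 responses were called different between the lines, by the edgeR test of the interaction term and the limit on fold change. CYBA passed the FDR but not that limit, with line differences of 0.45 (SE 0.12, FDR 0.00275) for CoCl2 and 0.42 (SE 0.12, FDR 0.00572) for Oxy. For NOX1 the log2 response in HT-29 less that in Caco-2 was -3.41 (SE 0.23, FDR 3.31e-14) with CoCl2 and -3.29 (SE 0.19, FDR 1.68e-15) with Oxy. With Oxy it was 1.21 (SE 0.23, FDR 4.63e-05) for NOXA1, 1.91 (SE 0.36, FDR 4.41e-05) for DUOX1 and 1.28 (SE 0.43, FDR 0.0160) for DUOX2. Of NOXA1 and DUOX1, all 3 Oxy libraries lay below all controls in Caco-2 and above all controls in HT-29. For DUOX2 the Oxy libraries lay above the controls in both lines, and the difference was one of size that rested on 16 counts over the HT-29 controls. Line and culture state cannot be told apart. No group had more than 3 libraries, so single outlying libraries were not searched for.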

How the results depend on the processing

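Over the alternatives, 120 of the counts of called members stayed within 1.5 times and 6 did not, and for single members 707 values kept their direction and side of the limits, 22 gained a call, 13 lost one and 11 changed sign. These tallies include the setting with no fold limit, which uses the same fit and can only add calls. Most of the gained calls came from that setting. With no limit on the fold change, called members numbered 4 with Oxy in Caco-2, 6 with Oxy in HT-29, 3 between agents in Caco-2, 2 for the line difference with CoCl2 and 6 between untreated lines. The share of all genes that passed without that limit was not counted, so these numbers have no background beside them. Leaving out single libraries gave 0 to 1 called members between agents in Caco-2, with 0 without CoCl2 replicate 3.

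Signs changed only for values that were not called. With library size only, CYBA became -0.45 and DUOX2 -0.13 for CoCl2 in HT-29, and with DESeq2 the line difference of DUOXA2 with CoCl2 became 0.052. Leaving out single libraries gave log2 changes of -0.19 to 0.066 for CYBA with Oxy in Caco-2, and of -0.20 to 0.46 for DUOX1 and -0.21 to 0.0085 for DUOX2 between agents in Caco-2. For the line difference with CoCl2 it gave -0.57 to 0.13 for DUOX1, -0.57 to 0.36 for DUOX2 and -1.25 to 0.45 for DUOXA2. The cause was not tested.

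The replicate block, added although the numbers did not pair the libraries, left 4 called members with CoCl2 in Caco-2 (NOX1 -2.01) and 4 in HT-29 (NOX1 -5.32), and changed no call of a member. Only the libraries compared could not give a value for DUOXA2 with Oxy in Caco-2, nor for DUOX2 and DUOXA1 with CoCl2 in HT-29, as they fell under the filter. Depth limits DUOXA1, DUOXA2 and, in HT-29, DUOX2, which rest on few counts, and NOXO1 was too low for the test in every comparison.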
